A study of Mus musculus with 5 samples.

Results

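The genes described here are the 57 genes of the Hsp70, Hsp90 and J-domain chaperone families, with the chaperonin pair Hspd1 and Hspe1, in the cardiac atria of mice. They were chosen by symbol: every gene of the authors' deposited comparison table whose symbol begins with Hspa, Hsp90 or Dnaja, Dnajb or Dnajc and a number, or is Hsph1, Hspd1 or Hspe1, without pseudogenes. They are 57 of the 57186 genes in the gene tables and of the 14927 genes in the authors' table. Another 7 genes fit the symbols but stand outside that table; Dnajc6 had 22 to 41 expected counts per library, and Dnajb7, Dnajb8, Dnajb13, Dnajc22, Dnajc5b and Dnajc5g had at most 14.

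Atria of mice with 1 MRC2 allele carrying the E990G change (het) were compared with wild-type atria (WT). MRC2 is an endocytic receptor for collagen. The series describes 7 het and 8 WT mice aged 4 to 10 months. Used here were 3 het libraries (replicates 5, 6 and 7) and 2 WT libraries (replicates 7 and 8), all of batch 2 and each from whole atrial tissue that had been snap-frozen. The labels used here give neither strain nor sex, and they name no agent. They number the replicates without saying that each is a separate animal. WT 7 and WT 8 differ in sex-linked genes (Ddx3y and Xist) and so are not 1 animal, while for the 3 het libraries the labels leave this unsaid; the p-values measure the spread between these 5 samples. The change is in 1 amino acid, so the level of Mrc2 does not check the genotype labels.

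Hsp70 proteins bind short hydrophobic stretches of unfolded proteins and release them in a cycle driven by ATP. J-domain proteins bring substrates to Hsp70 and start ATP hydrolysis, exchange factors of the Hsp110 branch reset the cycle, and Hsp90 takes over clients such as kinases and steroid receptors at a late folding step. The cytosol, the endoplasmic reticulum and the mitochondrial matrix each have an Hsp70 with its own J-domain partners. In heart muscle these chaperones act on contractile proteins, ion channels and imported mitochondrial enzymes, and heat, ischaemia and handling of tissue are known to raise the inducible members within a short time.

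Total expected counts ran from 17784601 (WT 8) to 28353091 (het 7), so the counts of low genes are least precise in WT 8. WT 7 stood apart in sex-linked genes, with 938 expected counts of Ddx3y against at most 3 in the other 4 libraries, and 21.5 of Xist against at least 6117. That is a male pattern in WT 7 and a female pattern in WT 8 and every het library. Sex is thus not balanced between the groups, and its part in the results was not tested. All 8 atrial cardiomyocyte markers were measured and summed to 79575 to 94015 TPM, a length-scaled abundance, in het and 105261 to 116160 in WT; the 6 testis and 4 lung markers summed to at most 0.93 TPM, with 2 of each list at 0 in every library. Macrophage markers (8 of 8 measured) summed to 448 to 619 TPM in het and 349 to 367 in WT, fibroblast markers (8 of 8) to 983 to 1021 and 617 to 893, although 4 of these 8 genes had fold changes above 0 and 4 below (median log2 0.0036, 1 called higher, Lum), lymphocyte markers (7 of 7) to 29.5 to 63.6 and 9.8 to 14.7, erythroid markers (5 of 5) to 11766 to 19995 and 2048 to 8750, and skeletal muscle markers (4 of 8 past the filter) to 816 to 1018 and 1446 to 1484. These 6 sums, the atrial one included, did not overlap between the groups and their part in the results was not tested. Smooth muscle and pericyte markers (6 of 6) summed to 125 to 153 TPM in het and 150 to 153 in WT, which overlapped through het 7. In 4 of these 6 genes every het library lay below both WT libraries, where 21.2% of all genes tested did so, and 1 was called lower (Tagln). The list's median log2 fold change was -0.71 (-0.73 with length and GC trends removed), and its part in the results was not tested either. The sums of ventricular, endothelial and adipocyte markers overlapped. In bulk tissue, fewer cells of a type and less RNA per cell cannot be told apart.

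Atria used the constitutive chaperones most. On the TPM scale, which is per transcript length, Hspa8, the constitutive cytosolic Hsp70, led with a mean of 736 TPM over the 5 libraries (584 to 951). Hsp90ab1, the constitutive cytosolic Hsp90, followed with 582 TPM (502 to 690). The ranges of this pair overlapped across libraries, but within each library Hspa8 lay above Hsp90ab1. Both lay above every other member. Hspa5 (BiP, the Hsp70 of the endoplasmic reticulum) had 234 TPM, and Hspe1, Hspa9 (the mitochondrial Hsp70), Hsp90b1 (Grp94, the Hsp90 of the endoplasmic reticulum) and Hspd1 had 184, 177, 171 and 153 TPM. The ranges of these 5 genes overlapped with each other. Within each library Hspa5 lay above Hsp90b1 and Hspd1. Hspe1 lay above Hspa5 in WT 7 (178 against 163 TPM) and below it in the other libraries. The full order of the 5 is thus not fixed by these libraries. Hsp90aa1, the stress-responsive Hsp90, stood at 98.3 TPM (64.4 to 134.8). The inducible Hsp70 genes Hspa1a and Hspa1b stood at 11.5 TPM (4.88 to 26.5) and 5.77 TPM (3.49 to 12.3). The lowest member was Dnajb3 at 0.70 TPM. In all, 7 members exceeded 100 TPM, 17 exceeded 50, 41 exceeded 10 and 56 exceeded 1.

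The 57 genes together held 0.335%, 0.358% and 0.419% of all TPM in het 5, 6 and 7, and 0.298% and 0.349% in WT 7 and WT 8. The groups overlapped, since WT 8 lay above het 5 (exact two-sided permutation p = 0.4; the smallest that 3 against 2 libraries allow is 0.2). Hspa8 and Hsp90ab1 made up 34.6% to 39.2% of that total in each library.

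**Figure D1:**
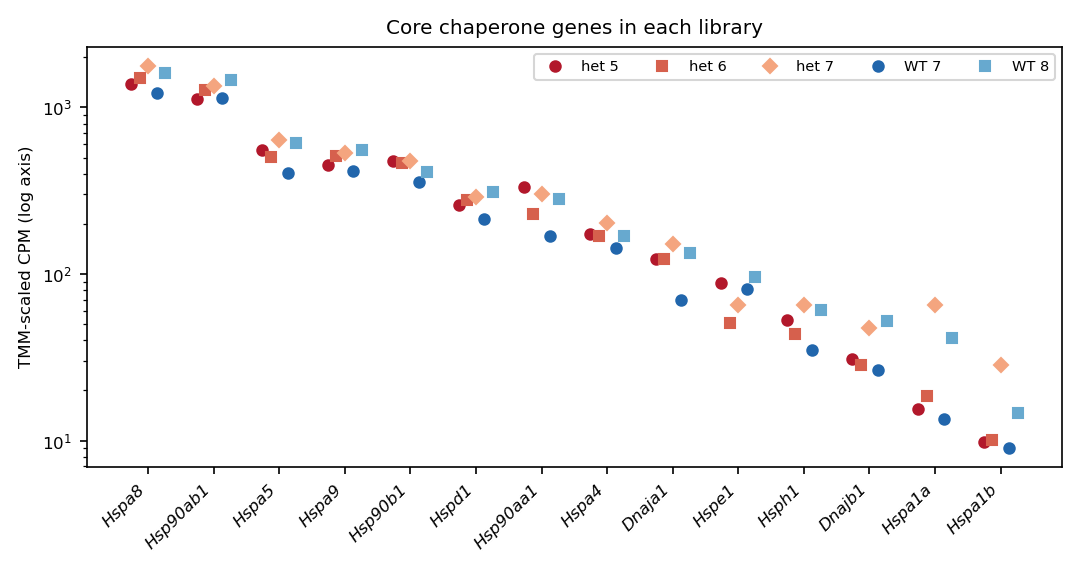
TMM-scaled CPM (log axis) of 14 core chaperone genes, 1 point for each of the 5 libraries (het 5, 6 and 7 in red shades, WT 7 and 8 in blue shades). Hspa8 and Hsp90ab1 lie between 1118 and 1769 CPM, and Hspa1a and Hspa1b show the widest spread, with het 7 and WT 8 above the other 3 libraries.

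The question of the comparison was which of these genes differ in level between het and WT atria. Counts were tested with edgeR's quasi-likelihood test over 16412 genes that passed its expression filter, and all 57 members passed. Fold changes are log2 of het over WT, with the standard error (SE). At an adjusted p under 0.05, 1 of the 57 genes was higher in het (1.75%) and 0 were lower. Over all genes tested, 2.99% were higher and 2.66% lower, 5.64% in all, so the members' share was no larger than the background. At an unadjusted p under 0.05, 10 members were higher (17.5%) and 4 lower (7.02%), where all genes had 12.9% and 11.9%. The het libraries all lay above the WT libraries for 15 members and all below for 7, together 38.6% against 42.3% of all genes. The median fold change was 0.02 for the members and -0.0014 for all genes, and the median size without its sign was 0.21 and 0.28.

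**Figure D2:**
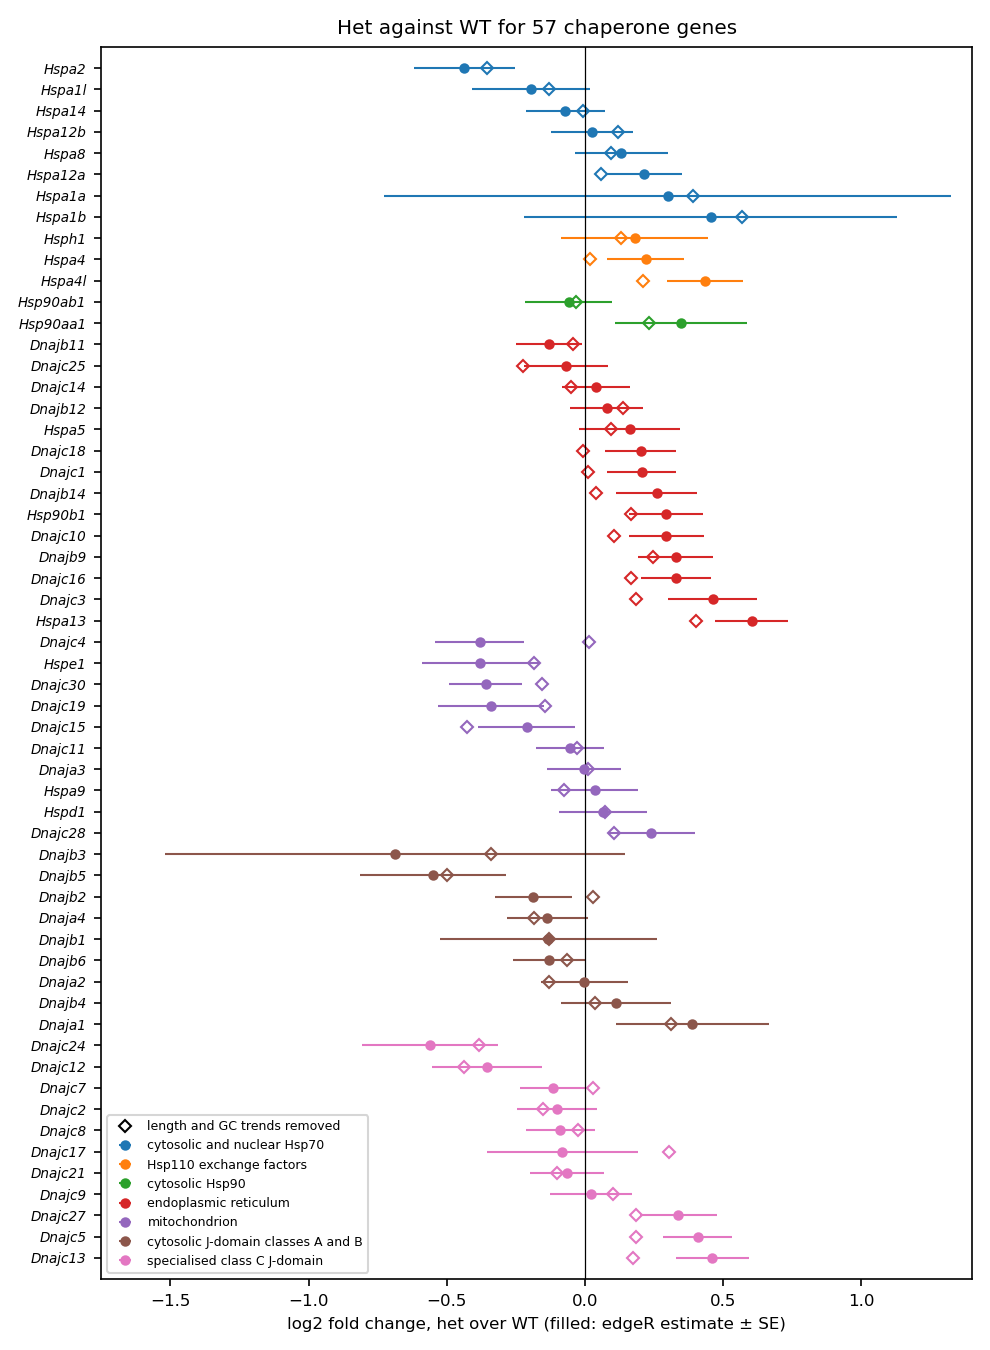
log2 fold change of het over WT for the 57 genes, coloured by the compartment or family of the product; filled points are edgeR estimates with their SE and open diamonds are estimates with length and GC trends removed. Of the 14 genes of the endoplasmic reticulum, 12 lie above 0, from Dnajc14 (0.04) to Hspa13 (0.60).

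Genes of the endoplasmic reticulum included the 1 called gene. Hspa13 (ENSMUSG00000032932, also called Stch) encodes a microsomal Hsp70 that lacks the substrate-binding domain of its relatives. It stood at 33.4, 34.9 and 34.4 CPM, counts scaled to library size, in the het libraries and at 21.4 and 23.7 CPM in the WT libraries. The het values lay close together and well above both WT values. Hspa13 rose by 0.60 (SE 0.13, edgeR adjusted p = 0.031), from 22.5 ± 1.57 (SD, n = 2) to 34.2 ± 0.77 CPM (SD, n = 3). The call did not hold with length and GC trends removed, at 0.40 (adjusted p = 0.164), nor with het 5, het 6, het 7 or WT 7 left out (adjusted p = 0.062, 0.097, 0.078 and 0.079, folds from 0.54 to 0.62).

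The other 13 genes of the endoplasmic reticulum were not called, and 11 of them had fold changes above 0 (10 with upper-quartile scaling, where Dnajc14 turned, and all 13 on log2(TPM + 1)). Dnajc3, a J-domain protein of the lumen that also inhibits eIF2 alpha kinases (p58IPK), had 101, 94.1 and 111 CPM in het and 60.7 and 88.0 in WT, with a fold change of 0.46 (SE 0.16, edgeR adjusted p = 0.101). Its lowest value was in WT 7, and WT 8 lay near het 6. Dnajb9 (ERdj4), which acts on BiP at the stress sensor IRE1, had 57.7, 66.6 and 54.1 against 44.0 and 50.8 CPM (0.33, SE 0.14). Hsp90b1, which folds integrins and Toll-like receptors, had 474, 461 and 475 against 357 and 410 CPM (0.29, SE 0.13). In both genes every het library lay above both WT libraries.

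Dnajc16 (ERdj8) had 37.1, 39.5 and 36.6 against 30.9 and 29.2 CPM, and Dnajc10 (ERdj5), a reductase that opens disulfide bonds of misfolded proteins, had 64.8, 74.4 and 68.3 against 50.7 and 62.1 CPM. Their fold changes were 0.33 and 0.29, with adjusted p-values of 0.133 and 0.197 in the edgeR fit. Hspa5 itself overlapped, with 551, 506 and 637 CPM in het and 401 and 609 in WT (0.16, SE 0.18, edgeR adjusted p = 0.635). Its 2 WT libraries were further apart than the group means. Its fold change was -0.11 without WT 7 and 0.51 without WT 8. Dnajb11 (ERdj3), the soluble partner of BiP, and Dnajc25 had fold changes below 0, of -0.13 and -0.07.

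Over these 14 genes the median fold change was 0.23, with 6 genes at an unadjusted p under 0.05, all higher, and 8 whose het libraries all lay above WT, where all genes tested had 12.9% higher at that p and 21.1% with het above WT. The compartments were assigned from textbook knowledge after the values were known, so these counts describe the genes and support nothing further. Their length, the abundance-weighted transcript length of the gene tables averaged over libraries, had a median of 3745 bases against 2519 for all genes. With length and GC trends removed the median was 0.10, where all genes had 0.03, and 1 gene had an unadjusted p under 0.05.

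Promoters of 46 of the 57 genes were found in RefSeq (build GRCm38.p6) and were searched on both strands over the 250 bases before the start site. The endoplasmic reticulum stress element is CCAAT, 9 bases of any kind and CCACG. It is bound by ATF6 with NF-Y and is known from BiP. These letters occurred in 3 members, Hspa5, Hsp90b1 and Dnajc3 (6.52% of the 46), and in 0.130% of 27025 genes. As the element is known from BiP, the match in Hspa5 was not independent of how the element was defined. The shares are a description and no test. The sequences are shown because this trio had fold changes of one sign (0.16, 0.29 and 0.46) without any being called. That sign is not particular to the trio, since 12 of the 14 genes of the endoplasmic reticulum had it. For Hspa5 it turned to -0.11 without WT 7. Hspa5 lies at chr2:34771840-34772089 (plus strand), Hsp90b1 at chr10:86705445-86705694 (minus strand) and Dnajc3 at chr14:118937682-118937931 (plus strand). Each is read 5′ to 3′ along its gene, and capitals mark the match. Hsp90b1 holds the element a second time on the opposite strand.
Hspa5: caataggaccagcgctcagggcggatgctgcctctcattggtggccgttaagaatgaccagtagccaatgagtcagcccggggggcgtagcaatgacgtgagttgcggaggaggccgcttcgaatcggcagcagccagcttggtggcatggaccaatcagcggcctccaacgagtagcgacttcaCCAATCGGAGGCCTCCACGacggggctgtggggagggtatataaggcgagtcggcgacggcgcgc
Hsp90b1: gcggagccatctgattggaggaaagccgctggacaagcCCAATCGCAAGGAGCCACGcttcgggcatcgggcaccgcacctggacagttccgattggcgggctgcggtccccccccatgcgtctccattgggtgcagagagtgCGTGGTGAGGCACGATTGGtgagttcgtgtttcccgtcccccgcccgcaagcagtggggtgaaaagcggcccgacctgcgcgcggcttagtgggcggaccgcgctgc
Dnajc3: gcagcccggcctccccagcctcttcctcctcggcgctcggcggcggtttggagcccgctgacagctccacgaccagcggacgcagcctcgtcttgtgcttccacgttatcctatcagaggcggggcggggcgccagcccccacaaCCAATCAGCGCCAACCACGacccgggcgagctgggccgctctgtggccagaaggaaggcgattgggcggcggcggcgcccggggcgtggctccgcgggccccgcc
The nearest matching base lay 47 bases before the start site in Hspa5, 89 in Hsp90b1 and 87 in Dnajc3. A match of letters is a description and was not measured as a bound site.

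The partner genes of the same compartment (27 of 27 past the filter) had 2 called higher and 0 lower, with a median of 0.07. Over all genes tested 2.99% were called higher and 2.66% lower. Sel1l, the adaptor of the HRD1 ubiquitin ligase in ER-associated degradation, rose from 63.9 and 65.1 CPM in WT to 86.8, 97.1 and 93.2 in het (0.52, SE 0.12, edgeR adjusted p = 0.035). Ero1a, the oxidase that recharges protein disulfide isomerase, rose from 20.1 and 25.1 to 32.3, 33.7 and 32.4 CPM (0.54, SE 0.14, edgeR adjusted p = 0.046). In neither gene did the groups overlap. With length and GC trends removed neither was called (0.27 and 0.31, both at an adjusted p of 0.288).

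Cytosolic and nuclear Hsp70 genes had no call in either direction. Hspa8 had 1379, 1509 and 1769 CPM in het and 1222 and 1614 in WT, with a fold change of 0.13 (SE 0.17, edgeR adjusted p = 0.681). The inducible pair Hspa1a and Hspa1b, which encode nearly the same protein, varied more between libraries than any other of the 54 members with at least 100 expected counts in every library. Hspa1a had 15.5, 18.6 and 65.1 CPM in het and 13.5 and 41.0 in WT. Hspa1b had 9.85, 10.1 and 28.2 CPM in het and 9.01 and 14.7 in WT. For both genes het 7 was highest, WT 8 second and WT 7 lowest, so the groups overlapped and each group held a high and a low library.

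The highest library was 4.84 times the lowest for Hspa1a and 3.13 times for Hspa1b. The fold change of Hspa1a was 0.30 (SE 1.02) and of Hspa1b 0.45 (SE 0.67), with adjusted p-values of 0.899 and 0.748 in the edgeR fit. RSEM divides reads that both genes share by a model, so their counts were also summed: the sums were 25.4, 28.7 and 93.3 CPM in het and 22.5 and 55.7 in WT, with a fold change of 0.34 (SE 0.91, edgeR adjusted p = 0.869). Without het 7 the fold change of Hspa1a was -0.66, without WT 7 it was -0.30 and without WT 8 it was 1.32. The direction for Hspa1a thus rested on single libraries.

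Among the other cytosolic Hsp70 genes, Hspa2, known for its role in sperm cells, had 8.63, 10.9 and 11.3 CPM in het and 14.6 and 13.3 in WT (-0.44, SE 0.18, edgeR adjusted p = 0.161). Its groups did not overlap. Hspa12a, a distant Hsp70 relative, had 37.9, 35.2 and 43.2 against 33.7 and 33.1 CPM (0.21, SE 0.14), also without overlap. Hspa1l, Hspa14 and Hspa12b had fold changes of -0.20, -0.07 and 0.02.

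The 3 Hsp110 genes, whose products exchange nucleotide on Hsp70, had fold changes above 0 and no call, although Hsph1 lay below 0 on the TPM scale (-0.012). Hspa4l had 93.5, 91.6 and 96.5 CPM in het and 60.3 and 78.9 in WT (0.43, SE 0.14, edgeR adjusted p = 0.078). The het libraries were close together and above both WT libraries, which differed by more. Hspa4 had 174, 169 and 202 against 143 and 169 CPM (0.22, SE 0.14), with het 6 and WT 8 nearly equal. Hsph1 had 53.0, 43.6 and 64.8 against 34.9 and 60.4 CPM (0.18, SE 0.27), so WT 8 lay above 2 of the het libraries.

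The cytosolic Hsp90 genes were not called. Hsp90aa1 had 332, 229 and 301 CPM in het and 169 and 282 in WT (0.35, SE 0.24, edgeR adjusted p = 0.418). WT 7 was lowest, and WT 8 lay between het 6 and het 7. Without WT 7 the fold change was 0.03, and without WT 8 it was 0.78. Hsp90ab1 had 1118, 1279 and 1346 against 1142 and 1457 CPM (-0.06, SE 0.16, edgeR adjusted p = 0.859), with overlap of the groups.

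Mitochondrial members had 7 fold changes below 0 and 3 above, with a median of -0.13 and no call; the sign of Dnaja3 turned with library size scaling and that of Hspa9 with upper-quartile scaling, which left 6 or 8 below 0. Dnajc30, a J-domain protein of the inner membrane, had 20.7, 22.8 and 22.6 CPM in het and 28.0 and 28.5 in WT (-0.36, SE 0.13, edgeR adjusted p = 0.112). Its groups were tight and did not overlap. Dnajc4 had 17.5, 15.2 and 18.6 against 25.1 and 19.3 CPM (-0.38, SE 0.16, edgeR adjusted p = 0.165). Dnajc19, a partner of the import motor whose loss causes cardiomyopathy with ataxia, had 31.3, 20.1 and 22.2 against 34.2 and 27.8 CPM (-0.34, SE 0.19), with het 5 above WT 8. Hspa9, the motor's Hsp70, had 451, 510 and 529 against 414 and 556 CPM (0.03, SE 0.16). Dnajc30, Dnajc19 and Dnajc4, all short, stood at -0.15, -0.15 and 0.02 once length and GC trends were removed.

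Hspd1 (Hsp60) and Hspe1 (Hsp10) form the chaperonin of the mitochondrial matrix and are transcribed in opposite directions from a shared promoter. Hspd1 had 259, 276 and 288 CPM in het and 215 and 310 in WT (0.06, SE 0.16, edgeR adjusted p = 0.845). Hspe1 had 88.0, 51.1 and 64.6 against 80.7 and 95.9 CPM (-0.38, SE 0.21, edgeR adjusted p = 0.316). WT 8 was highest for both, while WT 7 was lowest for Hspd1 and het 6 for Hspe1. The heat shock element, the motif bound by heat shock factors, was taken as 3 units in turn, GAA, TTC and GAA or TTC, GAA and TTC, with 2 bases of any kind between units. It occurred in the 250 bases before the start of 3 of the 46 genes (6.52%), Hspd1, Hspe1 and Dnajb6, and of 0.514% of 27025 genes. The stretch shared by Hspd1 and Hspe1 counts for both. Looser forms of the element were not searched for, and members without a listed promoter could not be searched. Absence from this count is thus no sign that a member lacks the element. The 215 bases of chr1:55087933-55088147 (GRCm38.p6, plus strand, read in the direction of Hspe1) lie before both start sites, and the promoter of Dnajb6, a J-domain protein of the muscle Z-disc, lies at chr5:29735648-29735897 (plus strand, before the first of 2 listed start sites). Both are shown because they hold the element, with the matching letters in capitals.
Hspd1 and Hspe1: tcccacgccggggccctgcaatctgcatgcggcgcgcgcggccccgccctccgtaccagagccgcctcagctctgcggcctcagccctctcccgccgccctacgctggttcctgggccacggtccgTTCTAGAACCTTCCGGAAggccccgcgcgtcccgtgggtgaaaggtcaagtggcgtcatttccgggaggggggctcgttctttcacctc
Dnajb6: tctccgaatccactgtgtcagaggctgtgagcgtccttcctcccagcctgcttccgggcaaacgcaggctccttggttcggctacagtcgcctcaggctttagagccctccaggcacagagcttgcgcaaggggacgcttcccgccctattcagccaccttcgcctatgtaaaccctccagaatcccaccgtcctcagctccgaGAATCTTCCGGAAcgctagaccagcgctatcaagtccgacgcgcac
In the shared stretch 2 overlapping matches make a run of 18 bases, the nearest of them 72 bases before the start of Hspe1 and 127 before that of Hspd1. Dnajb6 had 91.5, 103 and 109 CPM in het and 104 and 118 in WT (-0.13, SE 0.13). No difference passed the test for any of these 3 genes.

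Cytosolic J-domain genes of classes A and B overlapped between the groups in all 9 cases, with 7 below 0 and a median of -0.13; on log2(TPM + 1) 3 were below 0 and the median was 0.05, where the median of all genes moved from -0.0014 to 0.10. Dnaja1, a farnesylated partner of Hspa8, had 123, 123 and 151 CPM in het and 69.4 and 134 in WT (0.39, SE 0.28, edgeR adjusted p = 0.446). Dnajb1 (Hsp40), the inducible partner of Hsp70 in disaggregation, had 31.1, 28.4 and 47.4 against 26.4 and 52.1 CPM (-0.13, SE 0.39, edgeR adjusted p = 0.881). Dnajb5 had 64.6, 70.0 and 75.5 against 70.0 and 135 CPM (-0.55, SE 0.26, edgeR adjusted p = 0.265). In these 3 genes WT 8 lay far above WT 7. With WT 8 left out Dnaja1 was called higher (0.95, edgeR adjusted p = 0.018), its 1 call in 18 alternatives. Dnajb5 was called lower with WT 7 left out (-0.95, edgeR adjusted p = 0.007) and with every gene that had a count kept in the fit (-0.50, adjusted p = 0.014). Dnajb1 was called in none of the 18 and ran from -0.54 to 0.45. Dnajb3 had under 1 CPM in every library.

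Of the 11 genes for class C J-domain proteins with specialised tasks, 3 were at an unadjusted p under 0.05 higher and 1 lower, where all genes had 12.9% and 11.9%, and none was called. Dnajc13 (RME-8), which works in endosomal sorting, had 44.6, 52.5 and 49.7 CPM in het and 33.4 and 37.8 in WT (0.46, SE 0.13, edgeR adjusted p = 0.060). Dnajc5 (cysteine string protein), a chaperone of exocytosis, had 108, 119 and 118 against 85.5 and 87.6 CPM (0.41, SE 0.12, edgeR adjusted p = 0.068). Both were without overlap, and DESeq2 called both (adjusted p = 0.034 and 0.019), as 2 of 3 members among 10.0% of all genes that it called. Dnajc27, which carries a Rab-like GTPase domain, had 27.4, 27.3 and 24.0 against 20.4 and 21.2 CPM (0.34, SE 0.14). On the lower side, Dnajc24, which acts in diphthamide synthesis, had 5.96, 4.16 and 4.37 against 7.05 and 7.19 CPM (-0.56, SE 0.25), and Dnajc12, a cofactor of aromatic amino acid hydroxylases, had 9.80, 9.53 and 7.30 against 10.7 and 12 CPM (-0.35, SE 0.20). With length and GC trends removed Dnajc13 stood at 0.17 and Dnajc5 at 0.19.

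Transcript length moved with these fold changes. The 7 members under 1500 bases all had fold changes below 0, with a median of -0.38, where the 3510 genes of that length had -0.31. The 31 members of 1500 to 3000 bases had a median of -0.05, equal to the -0.05 of all such genes. The 19 members of 3000 bases or more had a median of 0.24, against 0.21, and 17 of them lay above 0. Spearman's rho between length and fold change was 0.67 over the 57 genes and 0.45 over all genes, and 0.34 and 0.13 after a trend on length and GC was removed in each library. This is a description across genes that share the same 5 libraries, and genes are not independent replicates. What sets the length trend was not tested. With the trends removed 0 members were called by edgeR (0.201% of all genes) and 2 had an unadjusted p under 0.05, against 13.8% of all genes; these were Hspa13 above 0 (0.40) and Dnajc12 below 0 (-0.44).

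**Figure D3:**
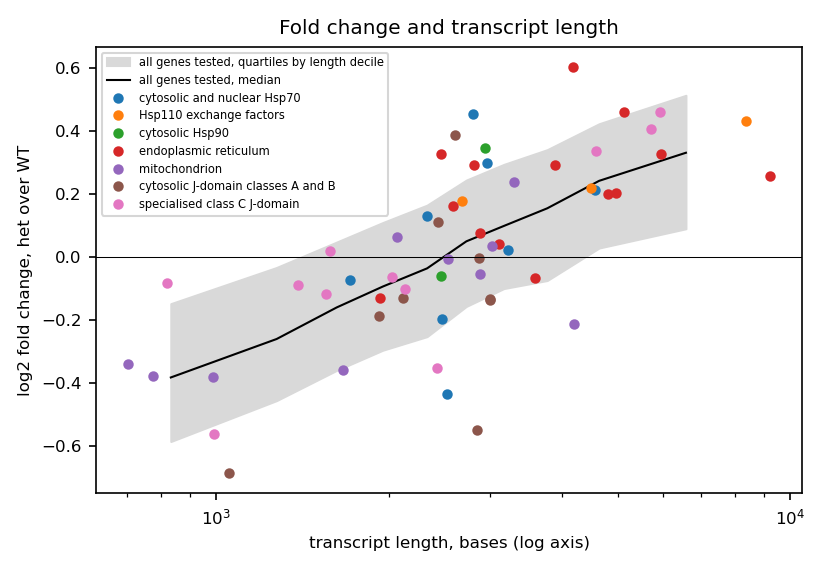
log2 fold change of het over WT against gene length (log axis, bases) for the 57 genes (points) beside the median and quartiles of all tested genes in 10 length classes. The members follow the medians of all genes, from -0.38 in the shortest class to 0.33 in the longest.

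The 2 WT libraries differed from each other in these genes. WT 8 was above WT 7 for 44 of the 57 (77.2%), with a median log2 difference of 0.20, while all genes had 50.9% and 0.01. WT 7 was the lowest of the 5 libraries for 29 members (50.9%, against 24.4% of all genes), WT 8 was the highest for 21 (36.8% against 23.0%) and het 7 for 18 (31.6% against 15.7%). The members' median deviation from the mean of the 5 libraries was -0.14 in WT 7, 0.12 in WT 8, 0.08 in het 7, 0.02 in het 5 and -0.02 in het 6, on the log2 scale. After Hspa1a and Hspa1b, the widest ranges belonged to Dnaja1 (2.18 times from lowest to highest), Dnajb5 (2.10), Dnajb1 (1.97), Hsp90aa1 (1.96), Hspe1 (1.88) and Hsph1 (1.86). WT 8 is the shallowest library. WT 7 has the male pattern of sex-linked genes, while WT 8 and every het library have the female pattern. With 1 WT library of each kind, depth and sex cannot be told apart from the animal. The median fold change of the members was -0.11 without WT 7 and 0.17 without WT 8. Those fits leave 1 WT library, which is assumed to vary like the het libraries. Without WT 8, 4 members were called higher (Dnajc3, Hspa4l, Dnaja1 and Hspa13), where 3.36% of the 17520 genes of that fit were called higher. Without WT 7 the 1 member called was Dnajb5, as lower, where 0.784% of 17084 genes were called lower.

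**Figure D4:**
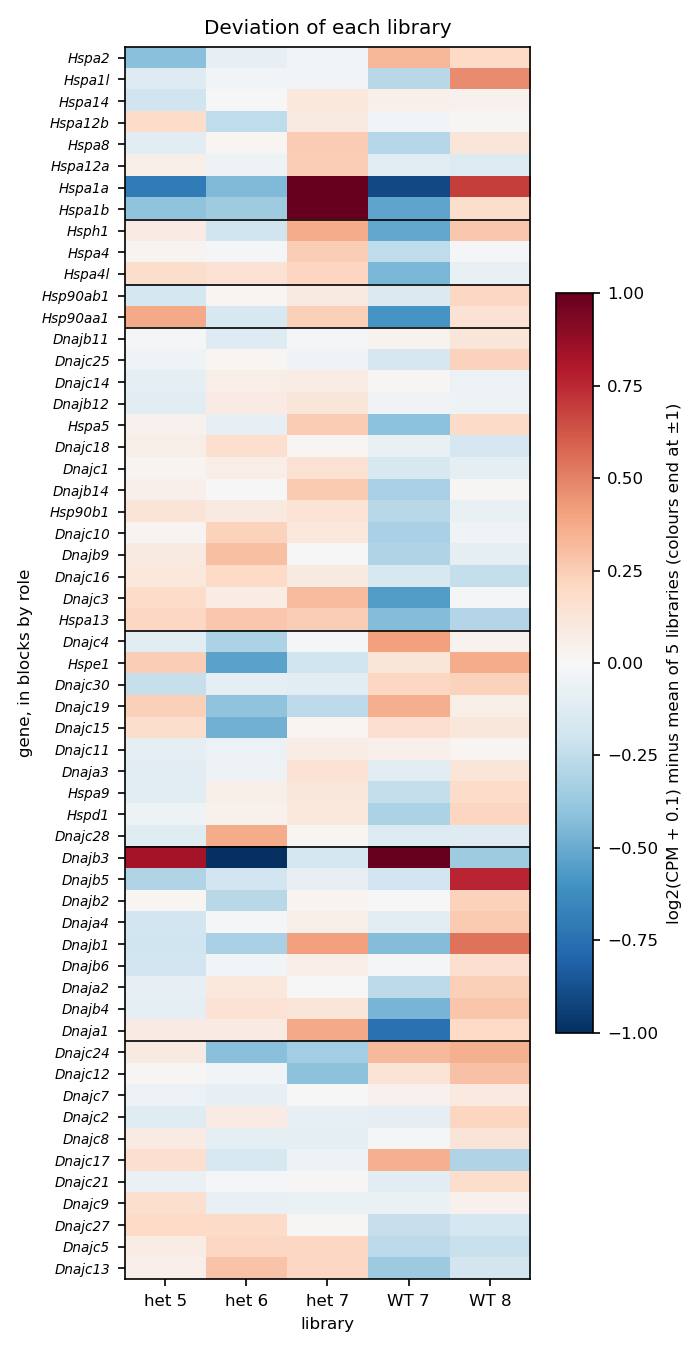
Deviation of log2 CPM from the mean of the 5 libraries for each of the 57 genes (rows) in each library (columns); colours are limited to 1 log2 unit either way. WT 7 is below the mean for 41 genes and WT 8 for 19, and Hspa1a and Hspa1b are high in het 7.

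Immediate early genes, which mark handling and acute stimulation, were set beside these libraries. Of 25 tested, 1 was called higher and 3 lower, where all genes had 2.99% higher and 2.66% lower. The median of the list was -0.03. Their summed TPM was 1228, 1255 and 1702 in het 5, 6 and 7 and 1374 and 1157 in WT 7 and WT 8. The sum was highest in het 7, the library with the highest Hspa1a, and lowest in WT 8, the library with the second highest. Fosb rose by 1.14 (SE 0.23, edgeR adjusted p = 0.036), while Ier5, Nr4a1 and Arc fell by 0.76, 0.63 and 0.90 (adjusted p = 0.023, 0.031 and 0.035). None of these 4 was called once length and GC trends were taken out (edgeR adjusted p = 0.060, 0.054, 0.185 and 0.104).

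Among 82 tested genes of 6 further lists of the folding machinery, 7 were called, 1 higher and 6 lower (8.54%), where all genes had 5.64%. Small heat shock proteins with Bag3, which hold unfolded proteins and clear them in muscle, were 8 of 8 below 0, with a median of -0.46, 2 called lower and 0 higher. Hspb2, a muscle small heat shock protein, fell from 113 and 89.6 CPM in WT to 54.6, 46.4 and 56.9 in het (-0.95, SE 0.14, edgeR adjusted p = 0.023). Hspb8, the partner of Bag3, fell from 239 and 283 to 182, 178 and 196 CPM (-0.49, SE 0.13, edgeR adjusted p = 0.049). In both the groups did not overlap. The median length of this list is 1133 bases. With length and GC trends removed its median was -0.14, 0 of the 8 genes lay above 0, and neither Hspb2 nor Hspb8 was called. In that edgeR fit 2 genes of the list were lower at an unadjusted p under 0.05, where 13.8% of all genes passed in either direction. With the length trend alone removed the median was -0.28.

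Of 30 co-chaperones, 1 was called higher and 2 lower, with a median of -0.03. Fnip1, a co-chaperone that slows the Hsp90 ATPase, rose by 0.65 (SE 0.17), while Stub1 (CHIP), the ubiquitin ligase that marks Hsp70 clients, fell by 0.49 (SE 0.13) and Pih1d1, a subunit of the R2TP complex, fell by 0.51 (SE 0.13). Their adjusted p-values in the edgeR fit were 0.049, 0.047 and 0.044. Once the length and GC trends were removed the folds were 0.37, -0.13 and -0.08, none called. Of 14 chaperonin and prefoldin genes none was called, with a median of -0.08 and Pfdn5 as the most abundant (92.8, 60.8 and 63.6 CPM in het, 102 and 78.3 in WT). Of 5 tested heat shock factor genes with Hsbp1, their binding protein, none was called: Hsf1, the master regulator, had a fold change of 0.03 (SE 0.15), and Hsbp1, the most abundant, -0.35 (SE 0.12, edgeR adjusted p = 0.094). Of 12 mitochondrial partners, Pam16, which holds the J-domain protein of the import motor, fell by 0.68 (SE 0.17, edgeR adjusted p = 0.044), with a list median of -0.24. Of 13 proteasome and ubiquitin genes, Psmb5, a catalytic subunit, fell by 0.56 (SE 0.12, edgeR adjusted p = 0.031), with a list median of -0.18. Over the chaperonin, heat shock factor, mitochondrial and proteasome lists these were the 2 calls, and with length and GC trends removed neither was called (Pam16 at -0.32, adjusted p = 0.295, and Psmb5 at -0.17, adjusted p = 0.556).

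Transcript shares were compared within genes, since a change in transcript use is not visible in gene totals. Of 56 members with a mean of at least 100 expected counts, 34 had 1 transcript with a share of at least 5% and 22 had 2 or more. Hspa5 gave a large difference: the longer transcript ENSMUST00000028222 (3672 bases) held 39.8%, 33.3% and 33.9% of the Hspa5 counts in het and 26.0% and 16.6% in WT. The groups did not overlap (exact two-sided permutation p = 0.2, the smallest possible). Of the 85 transcripts with a mean share of at least 5%, 23 did not overlap either way, and 24 differed by at least 5 points. The same counts were not made for transcripts of other genes, so they cannot be read as particular to the chaperones. In Hspa8, ENSMUST00000117557 (2019 bases) held 9.92%, 8.50% and 8.01% in het against 12.2% and 21.9% in WT. In Hsp90aa1, ENSMUST00000021698 held 3.26%, 2.37% and 3.63% against 3.89% and 19.0%. In both genes WT 8 stood far above the other 4 libraries, while WT 7 lay near the het values. Dnajb5 overlapped, with ENSMUST00000107973 at 24.3%, 28.3% and 35.5% against 31.6% and 55.0%. With 10 possible splits none of these shares can pass 0.05. Among the 22 genes the longer of the top 2 transcripts had the higher mean share in het in 12 and the lower in 10. Reads common to the transcripts of 1 gene are divided by RSEM's model.

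**Figure D5:**
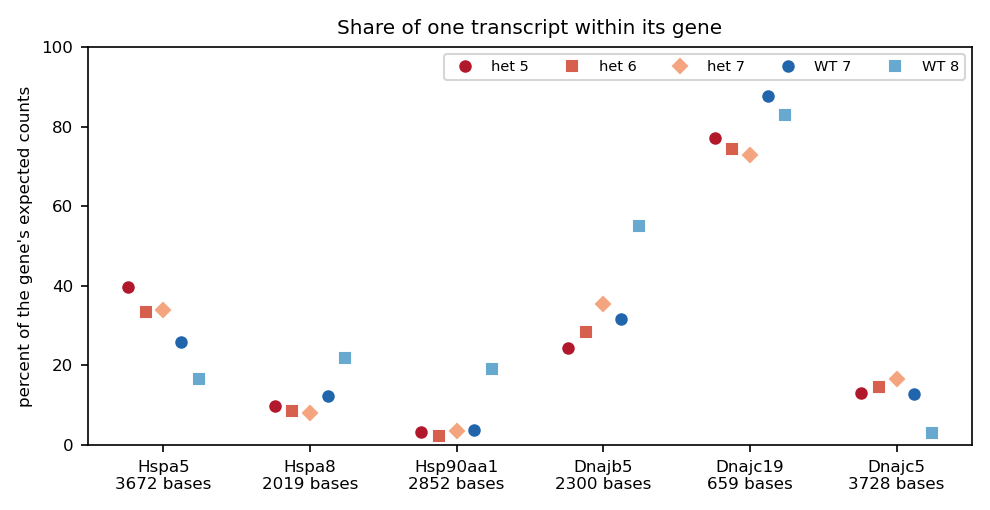
Percent of a gene's expected counts held by 1 transcript each of Hspa5, Hspa8, Hsp90aa1, Dnajb5, Dnajc19 and Dnajc5 (transcript length under each name), 1 point per library. The longer Hspa5 transcript lies at 33.3% to 39.8% in het and 16.6% to 26.0% in WT, and WT 8 stands apart in Hspa8 and Hsp90aa1.

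The authors' deposited table gives their own comparison of het and WT atria; the libraries that entered it are not given in the sources used here. At an unadjusted p under 0.05 it held 5 of the 57 genes (8.77%), all higher in het, against 5.60% of its 14927 genes, of which 795 were higher and 41 lower. No gene of the authors' deposited table had an adjusted p under 0.05, and the smallest among the members was 0.350. In the authors' deposited table these were Dnajc2, a ribosome-bound J-domain protein (log2 fold change 1.10, p = 0.0058), Dnajc1, a J-domain protein of the endoplasmic reticulum membrane (0.91, p = 0.0034), Hsp90aa1 (0.88, p = 0.037), Dnajc25 (0.72, p = 0.018) and Dnajc21, which works in ribosome assembly (0.67, p = 0.038). In the 5 libraries analysed here the same genes stood at -0.10, 0.21, 0.35, -0.07 and -0.06, none called by edgeR.

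The members below 0 that ranked first by p in the authors' deposited table were Dnajb5 (-0.64, p = 0.081), Dnajc12 (-0.44, p = 0.220), Dnajb3 (-0.63, p = 0.282), Dnaja3 (-0.32, p = 0.316) and Dnajc24 (-0.32, p = 0.377). Hspa13, the gene called in the 5 libraries, had a log2 fold change of -0.01 in the authors' deposited table. The members' median there was 0.01, and that of all its genes -0.03. The test behind those p-values is not stated: in the authors' deposited table the interval of Hsp90aa1 (-0.05 to 1.81) includes 0 at p = 0.037, while that of Dnajc5 (0.08 to 0.84) lies above 0 at p = 0.078.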

How the data were processed

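Stranded polyA libraries of snap-frozen atria were sequenced as paired reads. Per the submitters' processing notes, Trim Galore, STAR, RSEM, limma and edgeR were used with GRCm39, without versions given. The gene and transcript tables hold expected counts, estimated by the authors with RSEM and not normalized, and TPM, scaled by the authors to length and library total. The transcript tables also give the authors' isoform percent. The authors' deposited comparison table holds log2 fold changes, moderated t scores and p-values.

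Groups came from the titles (3 het, 2 WT). Expected counts were rounded. edgeR's default filter kept 16412 genes, which entered its quasi-likelihood test (TMM scaling, robust dispersions) with Benjamini-Hochberg adjustment and a threshold of 0.05. The SE was obtained as |log2 fold change| over √F. Total expected counts of 17784601 to 28353091 set the precision. The 10 splits of 5 libraries allow no exact two-sided p below 0.2. Length and GC trends per library were fitted with mgcv and entered as offsets (97.9% of tested genes had a GC value). Transcript shares are percent of a gene's expected counts, and deviations between libraries are of log2(CPM + 0.1). Also run were limma-voom (plain and quality-weighted), DESeq2, different filters and scalings, limma on log2(TPM + 1) and log2(TPM + 0.1), summed Hspa1a and Hspa1b, summed pseudogene copies, isoform percent, and each library left out.

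The chaperone genes, the gene lists and the motifs were chosen with earlier results of these data known, and the compartments were assigned after the values were seen. Named were every called member, 14 core members, the 8 members per direction with the smallest p, 5 per direction ranked by p in the authors' deposited table, and up to 3 called genes of each partner list, or its most abundant gene. Hspa5, Hspa8, Hsp90aa1 and Dnajb5 transcripts, the other members given by value, and Hsf1 were chosen after their values were seen. Promoters are of GRCm38.p6, another build than the files, so gene coordinates are not given. On simulated counts for het against WT without a trend (16270 genes), 64% of genes with a log2 change of 1 and 100% with 2 were recovered, with 13 false among 177 calls. Under a simulated length trend (16421 genes) the false calls were 558 among 731, falling to 11 among 187 once length offsets entered. That trend was set by hand, rising with length in every het library and falling in every WT library. Every gene had the same dispersion, and the offsets model a trend of the kind put in. These counts therefore check the code and give no rate of false calls for the real data. DESeq2 1.42.0, mgcv 1.9.3, limma 3.58.1 and edgeR 4.0.16 ran under R 4.3.3.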

Additional observations from a re-analysis of the deposited data

How the results depend on the processing

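No paired analysis was possible because the labels name no pairs of het and WT libraries. The groups share only replicate number 7, and nothing states that this number marks a pair. Depth limits Dnajb3, with under 1 CPM in every library, and the 2 WT libraries limit every comparison. The 490 higher and 436 lower genes became 867 and 780 with DESeq2, 237 and 222 with limma-voom, 0 and 0 with quality weights (3632 at an unadjusted p under 0.05), 1304 and 907 with every gene that had a count, 0 and 1 on log2(TPM + 1), 2 and 3 on log2(TPM + 0.1), 11 and 9 once the length trend was removed, and 21 and 12 once GC was removed as well. Library size scaling gave 795 higher. With 1 library left out, higher calls ran from 0 to 588 and lower calls from 0 to 290. The fit with every gene that had a count held 31569 genes, and those with DESeq2 and library size scaling held 16412. Higher calls over all genes rose in the same settings in which those of the members rose. Of the members, 1 was called higher in the main fit, 3 with DESeq2 and 4 with library size scaling. With every gene that had a count, 5 members were called higher and 1 lower (Dnajb5). With quality weights, on either TPM scale, with the length trend removed and with both trends removed, 0 members were called. With 1 library left out the calls ran from 0 to 4 higher and from 0 to 1 lower. Hspa13 was called in 9 of 18 alternatives, with folds from 0.40 to 0.76 and adjusted p from 0.002 to 0.164. The members' median was 0.18 on log2(TPM + 1) and 0.19 on log2(TPM + 0.1), where the median of all genes moved to 0.10 and 0.13, and ran from -0.11 to 0.17 with 1 library left out. The causes were not tested.

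Several fold changes reversed in sign. Some were not near 0 in the main fit, among them Dnajb3 (-0.69), Dnajb5 (-0.55) and Hspa1b (0.45). On log2(TPM + 1) and log2(TPM + 0.1), Dnaja3 was 0.15 and 0.15, Dnajb1 0.052 and 0.056, Dnajc2 0.055 and 0.059, Dnajc21 0.14 and 0.15, Dnajc25 0.034 and 0.038, Hsp90ab1 0.12 and 0.12, and Hsph1 -0.012 and -0.013. Dnaja3 was 0.043 with library size scaling and 0.045 with every gene that had a count. With the length trend removed Dnaja3 was 0.018, Dnajc21 0.023 and Pfdn5 0.0012. With length and GC trends removed Dnaja3 was 0.0099, Dnajc4 0.015, Hspa9 -0.075 and Pfdn5 0.057, and upper-quartile scaling gave Hspa9 -0.0071. With WT 7 and then WT 8 left out, folds ran from -0.0079 to 0.95 for Dnaja1, from -0.12 to 0.13 for Dnaja3, from -0.54 to 0.45 for Dnajb1, from -0.95 to 0.015 for Dnajb5, from -0.25 to 0.077 for Dnajc2, from -0.19 to 0.094 for Dnajc21, from -0.26 to 0.16 for Dnajc25, from -0.22 to 0.14 for Hsp90ab1, from -0.11 to 0.51 for Hspa5, from -0.053 to 0.36 for Hspa8, from -0.16 to 0.28 for Hspa9, from -0.17 to 0.37 for Hspd1 and from -0.16 to 0.64 for Hsph1. Dnajb3 ran from -1.25 (without WT 8) to 0.47 (without WT 7). Hspa1a ran from -0.66 (without het 7) to 1.32 (without WT 8), and Hspa1b from -0.24 to 0.86.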
